A study of Mus musculus with 9 samples.

Results

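The genes of mitosis and chromosome segregation were followed in haematopoietic stem and progenitor cells of mice in which Runx1 was deleted or a truncated RUNX1 was expressed. The set held 42 listed genes, chosen by name for their role in cell division, and 40 of them had at least 1 probe set carrying a single gene symbol among the 12393 genes measured. Ccnb1 and Cdca8 had none and were not analysed here. The cells, called KSL, were bone marrow cells on a C57BL/6 background sorted as c-Kit+, Sca-1+, lineage-negative and IL7Ra-negative. RUNX1(41-214) cells carried a retroviral vector expressing the stretch of RUNX1 from residue 41 to residue 214, which holds the DNA-binding Runt domain, and were taken 4 months after transduction and transplantation. Runx1KO cells had the genotype Runx1floxed/floxed MxCre+/- and were taken 3 months after poly IC, which induces the interferon-responsive Mx promoter that drives Cre. Control cells had the genotype Runx1floxed/floxed MxCre-/- and were likewise taken 3 months after poly IC. The labels of RUNX1(41-214) name no poly IC and no floxed alleles, and the 9 arrays hold no transplanted cells with an empty vector. A difference between RUNX1(41-214) and either other group therefore cannot be told apart from one of transplantation, transduction or treatment. Each group had 3 biological replicates on 1 array each. The labels do not say whether animals were pooled.

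Entry into mitosis is driven by Cdk1 bound to cyclin A and cyclin B, and polo-like and Aurora kinases then build the spindle and condense the chromosomes. Kinetochore proteins hold chromosomes on spindle microtubules, the spindle assembly checkpoint delays anaphase until all are attached, and the anaphase-promoting complex with Cdc20 ends the delay by marking cyclin B and securin for destruction. Transcripts of most of these genes accumulate late in the cell cycle, so in a mixed population their level depends on how many cells are cycling as well as on how much RNA each dividing cell holds. Stem cells at the top of the KSL compartment divide rarely, while the multipotent progenitors in the same gate divide often. In RNA from a whole sorted population, fewer cells of a type and less RNA per cell cannot be told apart.

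Levels are given as log2 signal, that is log2 of the deposited array signal plus 16 after quantile normalization, and differences are on the same scale. Median deposited signals were 125 to 138 on RUNX1(41-214) arrays, 137 to 147 on Runx1KO arrays and 141 to 145 on control arrays. The 3' Gapdh probe set exceeded the 5' one, a measure of RNA length, by 0.98 to 1.29 log2 units on RUNX1(41-214) arrays, 0.99 to 2.13 on Runx1KO arrays and 1.17 to 1.85 on control arrays, most on Runx1KO 3 and control 2. Runx1 itself stood at 10.82, 10.95 and 11.06 on RUNX1(41-214) arrays, at 11.20, 11.73 and 11.40 on Runx1KO arrays and at 10.73, 9.88 and 10.58 on control arrays. No Runx1KO array was below a control array, and since the sources used here do not place the probe set relative to the deleted exon, this level does not test the deletion. Kit, the receptor used in the sort, was at 11.0 or above on every array. Il7r, whose protein the gate excludes, was at 5.36 to 5.90 on RUNX1(41-214) arrays, 8.68 to 10.17 on Runx1KO arrays and 8.19 to 10.45 on control arrays. Ly6a had no probe set with a single symbol.

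None of the 40 mitotic genes passed the test in any comparison of groups. In limma's moderated test with Benjamini-Hochberg adjustment over all genes at 0.05, 0 of 40 members differed between RUNX1(41-214) and control cells, where 4.28% of all genes did. The count was also 0 of 40 between RUNX1(41-214) and Runx1KO cells, against 1.36% of all genes, and 0 of 40 between Runx1KO and control cells, against 0.347%. In the F test over the 3 groups 0 of 40 passed, against 3.40% of all genes. Even at an unadjusted p of 0.05 the count was 0 of 40 in each comparison, where 15.5%, 10.6% and 7.22% of all genes passed in the same order. The lowest unadjusted p values were 0.054 for Cenpe between RUNX1(41-214) and control, 0.0506 for Racgap1 between RUNX1(41-214) and Runx1KO, and 0.0724 for Kif11 between Runx1KO and control.

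What the mitotic genes showed instead was a wide spread between replicates of the same group. It was narrowest in Runx1KO for most members, and in RUNX1(41-214) and control nearly all of them moved in the same direction. For Mki67 the standard deviation was 0.74 in RUNX1(41-214), 0.16 in Runx1KO and 0.73 in control, while for Kif11 it was 0.60, 0.56 and 0.36. Pooled over the 3 groups, the within-group standard deviation of a member had a median of 0.48 log2 units. The median was 0.24 over all genes and 0.25 over the 7034 genes within the members' range of mean level. The pooled value was above the all-gene median for 36 of 40 members. The 1240 genes of widest spread, 10.0% of all by construction, held 25 of the 40 members (62.5%) and 11.9% of the genes in the members' level range. The widest were Cenpe (1.04), Ube2c (1.00), Cenpf (0.73), Cdca3 (0.65), Cdk1 (0.61) and Mki67 (0.61). The narrowest were Cks1b (0.18), Ncapd2 (0.20), Pttg1 (0.20) and Ect2 (0.21). The spread stands beside every comparison that follows, because it sets the width of each interval.

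**Figure D1:**
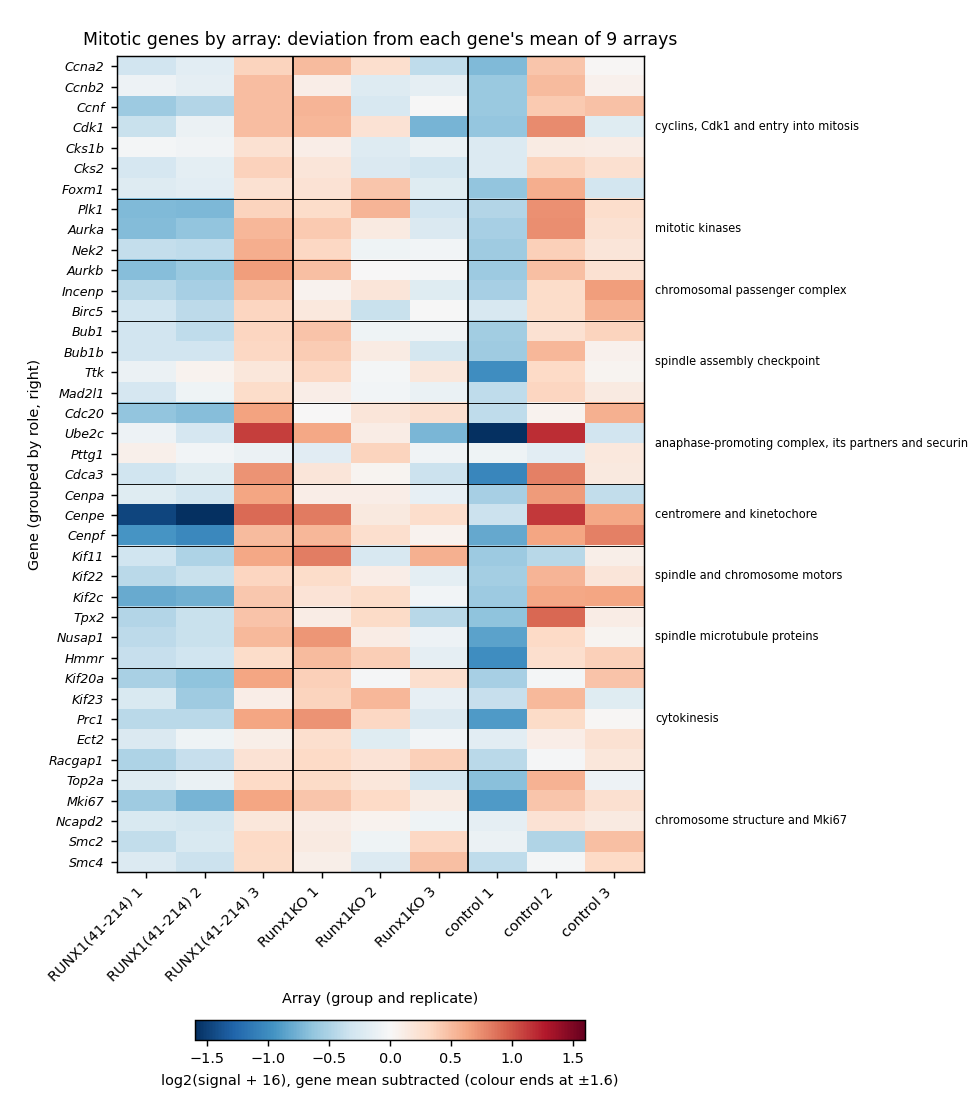
Log2 signal of the 40 measured mitotic genes (rows, ordered by role) on the 9 arrays (columns, RUNX1(41-214), then Runx1KO, then control), coloured by its deviation from the gene's mean over the 9 arrays. RUNX1(41-214) 1 and 2 and control 1 are below the mean for nearly every gene, while RUNX1(41-214) 3 and Runx1KO 1 are above it for 39 of 40 genes each.

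Array by array, RUNX1(41-214) 3 was above a gene's 9-array mean for 39 of 40 members, and RUNX1(41-214) 1 and 2 were above it for 1 member each. The median deviation from that mean was -0.34, -0.36 and 0.40 log2 units on RUNX1(41-214) 1, 2 and 3. It was 0.31, 0.12 and -0.090 on Runx1KO 1, 2 and 3, with 39, 26 and 10 members above the mean. On control 1, 2 and 3 it was -0.56, 0.40 and 0.18, with 0, 34 and 34 members above. RUNX1(41-214) and control thus each held arrays of high and of low mitotic level, while the lowest Runx1KO array was only slightly below the mean. RUNX1(41-214) 3 was the highest of its group for 39 of 40 members, against 34.3% of all genes. Runx1KO 1 was the highest of its group for 29 of 40 members, against 24.5% of all genes, and control 1 the lowest of its group for 38 of 40, against 35.5%. All 3 of these orders held together for 29 of 40 members (72.5%), against 4.59% of all genes. These orders were read off the members themselves, so the shares describe them and test nothing. In deposited signal, the sum over the 40 genes was 36821, 36298 and 58487 on the RUNX1(41-214) arrays, 55992, 49146 and 40916 on the Runx1KO arrays, and 33216, 57542 and 50451 on the control arrays.

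Most members also share short promoter letters that the choice of genes did not use. Many late cell cycle genes carry a cell cycle genes homology region, or CHR, bound by complexes built on MuvB, and CCAAT boxes bound by NF-Y. RefSeq promoter windows on GRCm38.p6, running from 250 bases before the start of a gene to 50 after it, were matched to 33 of the 40 measured members. Each window was searched on both strands for the CHR cores TTTGAA and TTTAAA and for CCAAT. The core TTTAAA reads the same on both strands and no match of one motif overlapped another in the windows printed here. Windows are printed, on the gene's own strand, for 5 of the members whose values are given per array. These are Top2a and Mki67, which are used as proliferation markers, the kinases Cdk1 and Plk1, and Cenpe, whose replicates spread most. Capitals mark the matches, and CCAAT on the opposite strand appears as ATTGG and TTTGAA as TTCAAA.
Cdk1: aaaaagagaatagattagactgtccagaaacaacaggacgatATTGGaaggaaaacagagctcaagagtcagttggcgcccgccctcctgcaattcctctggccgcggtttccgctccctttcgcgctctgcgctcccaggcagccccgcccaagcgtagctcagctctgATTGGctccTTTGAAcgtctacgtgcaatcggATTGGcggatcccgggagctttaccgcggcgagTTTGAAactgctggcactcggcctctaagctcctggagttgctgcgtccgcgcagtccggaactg
Top2a: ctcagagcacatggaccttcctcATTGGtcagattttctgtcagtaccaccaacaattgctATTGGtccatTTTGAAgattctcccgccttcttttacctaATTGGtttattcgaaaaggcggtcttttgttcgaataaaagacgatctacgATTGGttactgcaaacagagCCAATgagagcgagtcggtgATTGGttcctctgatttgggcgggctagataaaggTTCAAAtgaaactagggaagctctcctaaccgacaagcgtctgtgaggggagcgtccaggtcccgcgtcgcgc
Mki67: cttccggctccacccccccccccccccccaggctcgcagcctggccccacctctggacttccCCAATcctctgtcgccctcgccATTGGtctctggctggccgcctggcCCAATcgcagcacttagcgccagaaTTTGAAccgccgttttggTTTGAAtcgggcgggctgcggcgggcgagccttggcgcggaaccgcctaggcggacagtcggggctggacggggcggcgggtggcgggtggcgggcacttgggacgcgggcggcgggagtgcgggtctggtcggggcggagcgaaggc
Plk1: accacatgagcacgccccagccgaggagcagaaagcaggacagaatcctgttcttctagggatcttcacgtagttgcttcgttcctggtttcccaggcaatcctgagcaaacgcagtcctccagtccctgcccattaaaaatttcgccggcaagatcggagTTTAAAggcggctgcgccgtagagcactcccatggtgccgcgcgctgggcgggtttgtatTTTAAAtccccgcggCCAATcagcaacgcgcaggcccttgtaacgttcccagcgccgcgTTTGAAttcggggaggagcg
Cenpe: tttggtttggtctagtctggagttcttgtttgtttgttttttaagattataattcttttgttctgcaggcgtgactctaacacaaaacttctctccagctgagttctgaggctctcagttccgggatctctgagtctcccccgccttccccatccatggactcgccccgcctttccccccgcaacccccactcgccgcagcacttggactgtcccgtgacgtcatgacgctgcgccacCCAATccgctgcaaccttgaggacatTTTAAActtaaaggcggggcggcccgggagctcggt
The windows lie at chr10:69352863-69353162 (minus strand) for Cdk1, chr11:99024140-99024439 (minus strand) for Top2a, chr7:135716330-135716629 (minus strand) for Mki67, chr7:122159185-122159484 (plus strand) for Plk1 and chr3:135212313-135212612 (plus strand) for Cenpe. Counted from the start of the gene, the CHR core nearest to it began at -15 in Cdk1, -23 in Top2a, -98 in Mki67, -29 in Plk1 and 15 in Cenpe. Top2a held 6 CCAAT boxes, Cdk1 and Mki67 held 3 each, and Plk1 and Cenpe held 1 each.

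Over the 33 measured members with a window, 25 (75.8%) held TTTGAA and 7 (21.2%) held TTTAAA, against 15.4% and 12.1% of the 9887 measured genes with a window. Of all 27025 genes in the promoter table, 20.2% held TTTGAA and 14.9% held TTTAAA. The NF-Y box CCAAT was in 28 members (84.8%), against 42.3% of measured genes and 41.1% of the table. Both kinds of motif were in 25 members (75.8%), against 9.93% of measured genes and 12.2% of the table. A CHR core lay within 50 bases of the start in 23 of 33 members (69.7%), against 7.16% of measured genes and 9.54% of the table. Mad2l1, Nusap1 and Pttg1 held neither kind in their windows. The replicate spread had a median of 0.52 log2 units over the 25 members with both kinds, 0.41 over the 5 with 1 kind and 0.28 over the 3 with neither, and 0.49 over the 7 without a window. These groups are small and their ranges overlapped, from 0.18 to 1.04 with both kinds and from 0.20 to 0.52 with neither. These matches describe letters in a window and do not show that any factor bound there.

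**Figure D2:**
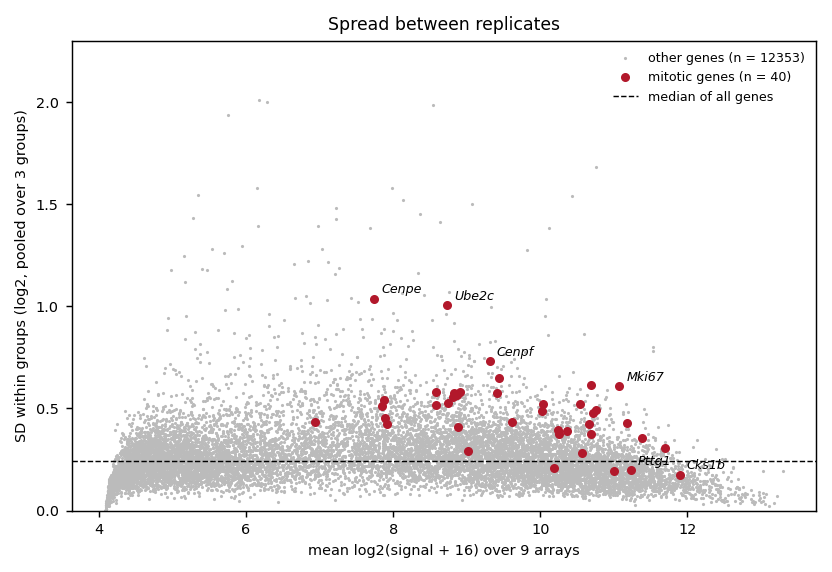
Pooled within-group standard deviation (log2 units) against mean log2 signal for the 40 mitotic genes and for all 12393 genes. The members lie mostly in the upper part of the cloud at their level, with Cenpe and Ube2c the highest of them and Pttg1 and Cks1b near the all-gene median.

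The genes that open mitosis had overlapping levels in the 3 groups. Cdk1, the kinase whose activation starts mitosis, was at 10.33, 10.60 and 11.18 on RUNX1(41-214) arrays, 11.22, 10.92 and 9.94 on Runx1KO arrays and 10.07, 11.45 and 10.50 on control arrays. The highest and the lowest controls lay further apart than any 2 group means, and all 3 groups overlapped. RUNX1(41-214) minus control was 0.031 ± 0.38 (SE) with a 95% interval from -0.80 to 0.86, and Runx1KO minus control was 0.020 ± 0.38 with an interval from -0.81 to 0.85. Foxm1, a transcription factor that drives late cell cycle genes, was at 6.73, 6.78 and 7.19 on RUNX1(41-214) arrays, 7.18, 7.39 and 6.74 on Runx1KO arrays and 6.31, 7.53 and 6.64 on control arrays. The controls held both the lowest and the highest value of the 9. Runx1KO minus control was 0.27 ± 0.31 for Foxm1 (adjusted p = 0.92 in limma). The dimmer Foxm1 probe sets gave 0.30, 0.21 and -0.27, the last near the bottom of the scale with a mean log2 signal of 4.48. The other measured genes of the group were the cyclins Ccna2, Ccnb2 and Ccnf and the Cdk1-binding subunits Cks1b and Cks2. Over the 7, the median difference of RUNX1(41-214) from control was 0.038, with 5 above 0 and 2 below.

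Plk1, the polo-like kinase needed for centrosome maturation and spindle assembly, was at 8.11, 8.10 and 9.17 on RUNX1(41-214) arrays, 9.11, 9.36 and 8.51 on Runx1KO arrays and 8.35, 9.55 and 9.10 on control arrays. RUNX1(41-214) 1 and 2 were the lowest of the 9, and RUNX1(41-214) 3 overlapped both other groups. The difference from control was -0.54 ± 0.37 (interval from -1.34 to 0.27, adjusted p = 0.558 in limma), and from Runx1KO -0.53 ± 0.37 (adjusted p = 0.689). Aurka, the Aurora kinase of the spindle poles, and Nek2, a centrosome kinase, differed from control by -0.42 and -0.075 in RUNX1(41-214). The Aurora kinase of the chromosomal passenger complex, Aurkb, with its scaffold Incenp and its survivin subunit Birc5, differed by -0.25, -0.31 and -0.34. All 6 genes had means below control in RUNX1(41-214), and none passed. In Runx1KO the same 6 differed from control by between -0.27 and 0.11.

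The checkpoint genes were the kinases Bub1 and Ttk, the kinase-like inhibitor Bub1b and Mad2l1, which holds Cdc20 in check. Their differences lay between -0.14 and 0.26 in RUNX1(41-214) against control, and between -0.044 and 0.37 in Runx1KO against control. Ube2c, the ubiquitin-conjugating enzyme of the anaphase-promoting complex, was picked out after its values were seen because its controls spread most. It was at 8.65, 8.46 and 9.83 on RUNX1(41-214) arrays, 9.35, 8.85 and 7.99 on Runx1KO arrays and 7.08, 9.91 and 8.42 on control arrays. The controls alone spanned 2.83 log2 units, a 7.11-fold range, and enclosed all other arrays. Pttg1, the securin that restrains separase, was picked out in the same way for its narrow spread. It was at 11.32, 11.19 and 11.14 on RUNX1(41-214) arrays, 11.04, 11.59 and 11.18 on Runx1KO arrays and 11.16, 11.07 and 11.39 on control arrays, with all groups overlapping and its highest value on Runx1KO 2. Its intervals were narrow, from -0.32 to 0.34 for RUNX1(41-214) minus control and from -0.27 to 0.40 for Runx1KO minus control. A dimmer Pttg1 probe set was at 8.08, 8.14 and 8.07 on RUNX1(41-214) arrays, 7.91, 7.80 and 7.85 on Runx1KO arrays and 7.85, 7.33 and 7.56 on control arrays. RUNX1(41-214) was above all other arrays there and differed from control by 0.51 (adjusted p = 0.267 in limma over all probe sets). On the brightest probe sets, 20.3% of all genes had arrays that did not overlap in that comparison. The remaining Pttg1 probe set, with a mean log2 signal of 5.47, gave -0.40 against control, opposite in sign. Cdc20, the activator of the complex, and Cdca3, a trigger of mitotic entry, differed from control by -0.29 and 0.10 in RUNX1(41-214).

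Cenpe, the kinetochore motor that carries chromosomes to the spindle equator, had the lowest F test p of the set. It was at 6.28, 5.62 and 8.65 on RUNX1(41-214) arrays, 8.58, 7.90 and 8.03 on Runx1KO arrays and 7.40, 8.87 and 8.37 on control arrays. RUNX1(41-214) 1 and 2 lay below all 6 other arrays, while RUNX1(41-214) 3 was second only to control 2, an 8.18-fold range within 1 group. RUNX1(41-214) minus control was -1.36 ± 0.64 (interval from -2.75 to 0.027), with an adjusted p of 0.337 in limma. Against Runx1KO it was -1.32 ± 0.64 (interval from -2.71 to 0.068, adjusted p = 0.508). Without RUNX1(41-214) 3 the differences were -2.26 from control (adjusted p = 0.0151) and -2.22 from Runx1KO (adjusted p = 0.0375), so 1 array decided which side of the threshold Cenpe took. Cenpf, a large protein of the outer kinetochore, was at 8.36, 8.28 and 9.82 on RUNX1(41-214) arrays, 9.84, 9.58 and 9.37 on Runx1KO arrays and 8.49, 9.95 and 10.11 on control arrays. Its low arrays were again RUNX1(41-214) 1 and 2, joined by control 1, so the groups overlapped. RUNX1(41-214) minus control was -0.70 ± 0.46 (adjusted p = 0.536 in limma). A dimmer Cenpf probe set gave 0.10 for the same comparison, so the 2 probe sets disagreed in sign. Cenpa, the histone variant that marks the centromere, differed by 0.13.

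**Figure D3:**
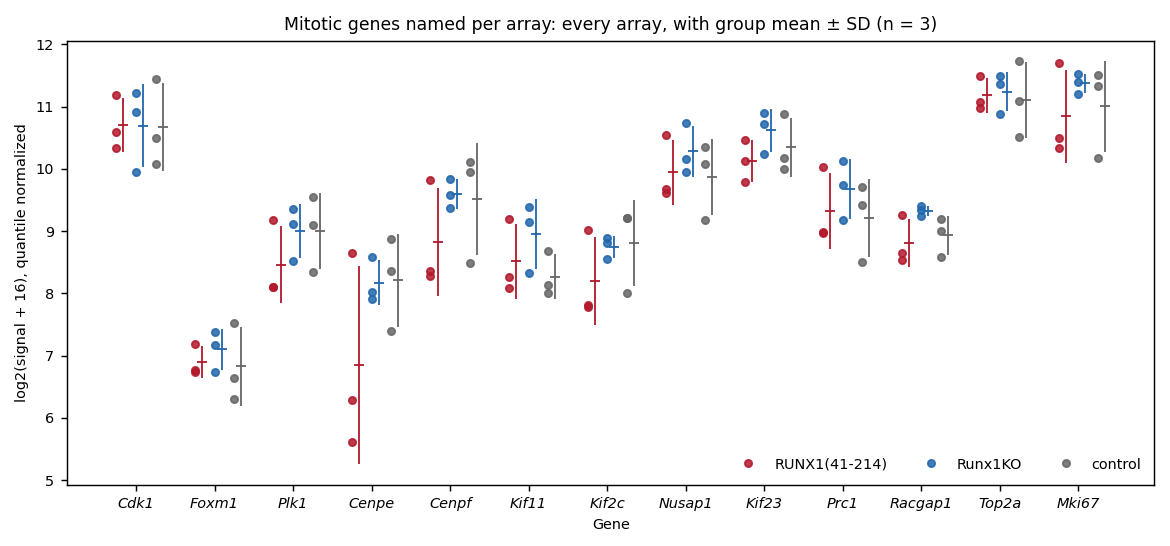
Log2 signal of 13 mitotic genes on each array, with points for replicates and bars for the group mean ± SD (n = 3), in the order RUNX1(41-214), Runx1KO and control. The groups overlap in nearly every panel, and for Racgap1 the Runx1KO points sit above all controls.

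Of the motors, Kif11, the kinesin that pushes spindle poles apart, was at 8.26, 8.09 and 9.20 on RUNX1(41-214) arrays, 9.39, 8.33 and 9.15 on Runx1KO arrays and 8.0, 8.14 and 8.68 on control arrays. Runx1KO 1 and 3 were above all controls, and Runx1KO 2 lay among them. Runx1KO minus control was 0.69 ± 0.35 (interval from -0.073 to 1.45, adjusted p = 0.748 in limma). Its other probe sets gave 0.34 and -0.30. Kif2c, a kinesin that depolymerizes microtubules at centromeres, was at 7.78, 7.82 and 9.02 on RUNX1(41-214) arrays, 8.81, 8.88 and 8.55 on Runx1KO arrays and 8.01, 9.20 and 9.21 on control arrays. RUNX1(41-214) 1 and 2 were the lowest of the 9, while RUNX1(41-214) 3 was above all Runx1KO arrays and within the range of the controls. Its difference from control was -0.60 ± 0.38 (adjusted p = 0.513). Kif22, a chromosome arm motor, differed by -0.21. Nusap1, which bundles spindle microtubules, was at 9.61, 9.67 and 10.55 on RUNX1(41-214) arrays, 10.74, 10.15 and 9.95 on Runx1KO arrays and 9.18, 10.35 and 10.07 on control arrays. The highest array was Runx1KO 1 and the lowest control 1, with overlap in every comparison. Runx1KO minus control was 0.42 ± 0.33 (adjusted p = 0.878). A dimmer Nusap1 probe set, with a mean log2 signal of 5.38, gave -0.31. Tpx2, which activates Aurka on the spindle, differed from control by -0.25 in RUNX1(41-214) and -0.14 in Runx1KO. Its dimmer probe set gave 0.13 and 0.35 in the same order, opposite in sign. Hmmr, a spindle and hyaluronan-binding protein, differed by -0.016 and 0.37.

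In cytokinesis, Racgap1 was the 1 member whose arrays did not overlap between groups on the brightest probe set. Racgap1, a subunit of centralspindlin, was at 8.53, 8.65 and 9.25 on RUNX1(41-214) arrays, 9.33, 9.24 and 9.40 on Runx1KO arrays and 8.59, 9.0 and 9.20 on control arrays. Every Runx1KO array was above every control array, Runx1KO 2 and control 3 being the closest. Over all genes 10.5% had arrays that did not overlap in that comparison, so 1 of 40 is below the background share. For RUNX1(41-214) the count was 0 of 40 against control and 0 of 40 against Runx1KO, where 20.3% and 18.8% of all genes did not overlap. The dimmer Racgap1 probe set did overlap, at 8.01, 7.80 and 7.87 on Runx1KO arrays and 7.06, 8.18 and 7.82 on control arrays, with a difference of 0.21. On the brightest, Racgap1 differed by 0.39 ± 0.23 between Runx1KO and control (interval from -0.12 to 0.90, adjusted p = 0.819 in limma). It differed by -0.51 ± 0.23 between RUNX1(41-214) and Runx1KO (interval from -1.03 to 0.0015, adjusted p = 0.471). For that comparison the dimmer probe set gave -0.15 (adjusted p = 0.927 in limma over all probe sets).

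Kif23, the kinesin subunit of centralspindlin, was at 10.12, 9.80 and 10.47 on RUNX1(41-214) arrays, 10.71, 10.90 and 10.23 on Runx1KO arrays and 9.99, 10.88 and 10.17 on control arrays. RUNX1(41-214) 2 was the lowest of the 9, and RUNX1(41-214) 3 was above Runx1KO 3. The difference from Runx1KO was -0.49 ± 0.26 (interval from -1.05 to 0.079, adjusted p = 0.573 in limma). In the same comparison the dimmer Kif23 probe sets gave -0.0032 and -0.69. For Runx1KO minus control they gave -0.27 and 0.32 in the same order, where the brightest gave 0.27. The probe set at -0.27 was near the bottom of the scale, with a mean log2 signal of 4.69. Prc1, which crosslinks the microtubules of the central spindle, was at 8.98, 8.97 and 10.03 on RUNX1(41-214) arrays, 10.13, 9.73 and 9.18 on Runx1KO arrays and 8.50, 9.70 and 9.42 on control arrays. Its extremes were Runx1KO 1 at the top and control 1 at the bottom. Runx1KO minus control was 0.47 ± 0.37 (adjusted p = 0.874). Kif20a, a kinesin of the cleavage furrow, and Ect2, a guanine nucleotide exchange factor, differed by 0.25 and -0.047 in the same comparison. All 5 cytokinesis genes had lower means in RUNX1(41-214) than in Runx1KO, with a median difference of -0.39, and 0 of 5 passed.

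Mki67, the proliferation antigen that coats mitotic chromosomes, was at 10.50, 10.34 and 11.70 on RUNX1(41-214) arrays, 11.52, 11.39 and 11.20 on Runx1KO arrays and 10.17, 11.51 and 11.33 on control arrays. RUNX1(41-214) 3 was the highest of the 9 and control 1 the lowest, with the Runx1KO arrays close together between them. RUNX1(41-214) minus control was -0.16 with an interval from -0.97 to 0.65, RUNX1(41-214) minus Runx1KO was -0.53 with an interval from -1.34 to 0.29, and Runx1KO minus control was 0.37 with an interval from -0.45 to 1.18. Top2a, the topoisomerase that untangles sister chromatids, was at 10.97, 11.08 and 11.50 on RUNX1(41-214) arrays, 11.49, 11.35 and 10.88 on Runx1KO arrays and 10.51, 11.73 and 11.09 on control arrays. The controls again held both extremes. Runx1KO minus control was 0.13 with an interval from -0.46 to 0.72, and RUNX1(41-214) minus control was 0.072 with an interval from -0.52 to 0.66. The condensin genes Ncapd2, Smc2 and Smc4 differed by between -0.19 and -0.046 in RUNX1(41-214) against control. One of the dimmer Smc4 probe sets gave -1.54 in that comparison, with RUNX1(41-214) arrays at 7.27, 7.39 and 9.63 and control arrays at 9.11, 10.56 and 9.25. The other dimmer Smc4 probe set, with a mean log2 signal of 11.23, gave -0.27.

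Across the whole set, means were below control in RUNX1(41-214) for 26 of 40 members and above for 14, with a median difference of -0.12 against 0.018 over all genes. Against Runx1KO, 33 members had lower and 7 had higher means in RUNX1(41-214), with a median of -0.20 against 0.016 over all genes. Between Runx1KO and control, 25 were above and 15 below, with a median of 0.075 against -0.0040. The members' median deviation itself had a standard deviation of 0.40 log2 units between arrays of a group. With each array left out in turn, they ran from -0.34 to 0.040 for RUNX1(41-214) against control, from -0.46 to -0.088 for RUNX1(41-214) against Runx1KO and from -0.19 to 0.27 for Runx1KO against control. The comparisons share arrays and are not independent of each other. A p that misses the threshold does not show that levels were alike. The 95% interval of a member had a median half-width of 0.69 log2 units, against 0.44 over all genes. It lay wholly within 2-fold in either direction for 29 of 40 members in RUNX1(41-214) against control, 22 of 40 in RUNX1(41-214) against Runx1KO and 30 of 40 in Runx1KO against control. For the remaining members a 2-fold difference in at least 1 direction was inside the interval.

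**Figure D4:**
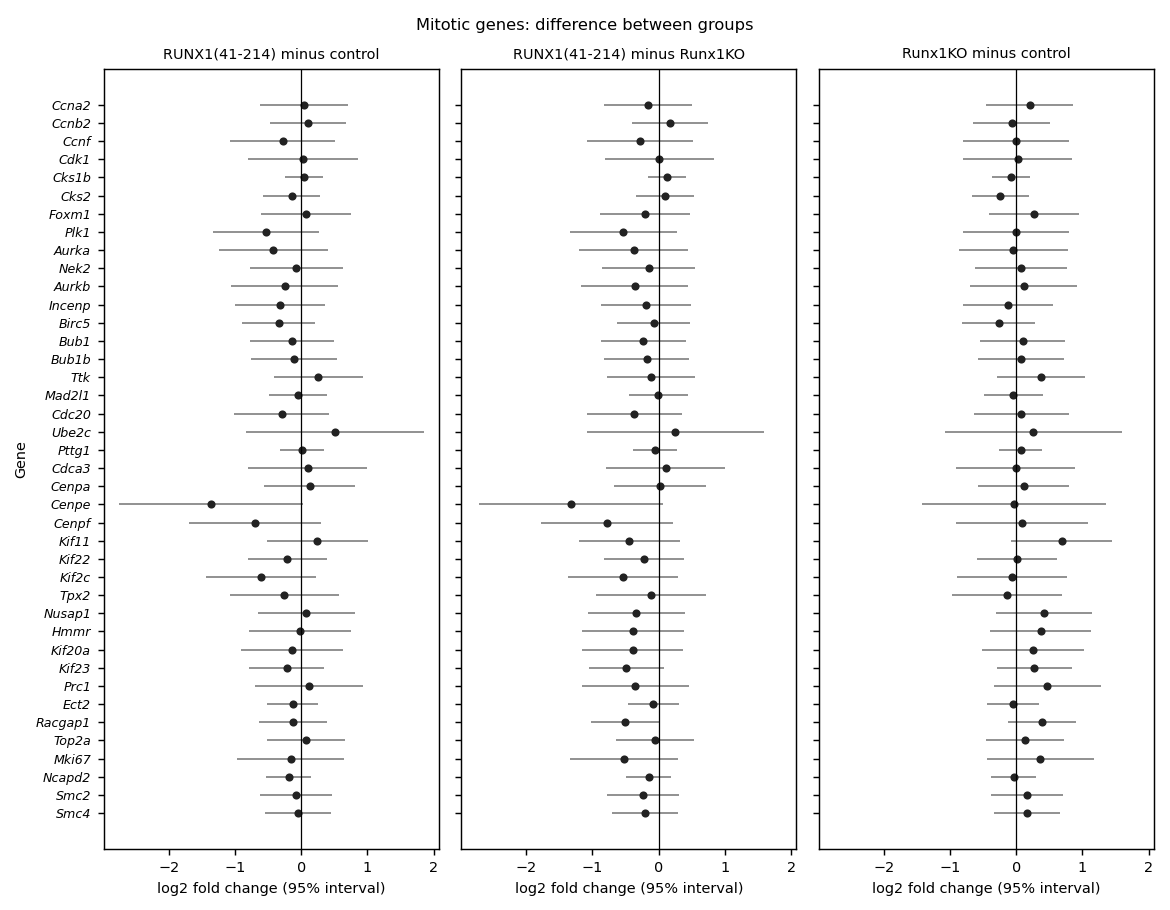
Log2 difference of each of the 40 mitotic genes with its 95% interval, in 3 panels for RUNX1(41-214) minus control, RUNX1(41-214) minus Runx1KO and Runx1KO minus control. Every interval includes 0, and Cenpe has the widest interval in each panel.

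Other genes of the division machinery, taken from lists written by function, gave few calls. Of 27 measured genes for the spindle, cytokinesis and mitotic entry outside the set, 0 passed in any comparison, and 18 (66.7%) shared the 3 orders of arrays. Melk, a kinase of mitotic cells, had the lowest p of that list for RUNX1(41-214) minus control, at -0.70 ± 0.31 (adjusted p = 0.301 in limma). Of 22 further kinetochore and checkpoint genes 0 passed, and 10 (45.5%) shared the orders. The list for the core anaphase-promoting complex, which also named the associated genes Fzr1, Fbxo5 and Ube2s, had 0 of 15 measured genes past the threshold and 1 of 15 with the shared orders. In the cohesin, condensin and separase list 1 of 14 passed, in RUNX1(41-214) against control, where 4.28% of all genes did. Esco1, an acetyltransferase that locks cohesin onto chromatin, rose by 1.08 ± 0.25 in RUNX1(41-214) against control (adjusted p = 0.0314), with RUNX1(41-214) arrays at 10.19, 10.18 and 9.65 and control arrays at 9.26, 8.53 and 9.0. All RUNX1(41-214) arrays were above all controls, and 20.3% of all genes had arrays that did not overlap in that comparison. A dimmer Esco1 probe set gave -1.77 instead, with RUNX1(41-214) arrays at 5.41, 5.23 and 7.74 and control arrays at 8.03, 8.63 and 7.02, so the direction for Esco1 depends on the probe set.

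Regulators of the cycle included 2 genes that passed in RUNX1(41-214) against control, where 4.28% of all genes did. Among 14 E2F, DREAM and MuvB genes, E2f6, a repressor of the E2F family, fell by 0.62 ± 0.16 in RUNX1(41-214) against control (adjusted p = 0.049 in limma). It was at 9.71, 9.77 and 9.91 on RUNX1(41-214) arrays and at 10.34, 10.24 and 10.69 on control arrays. Those groups did not overlap, as was true of 20.3% of all genes. However, with every probe set tested in limma in place of 1 per gene the adjusted p was 0.0635. Among 13 CDK inhibitors, G1 cyclins and their kinases, Cdkn1b, the inhibitor p27 that restrains entry into S phase, rose by 0.90 ± 0.15 in RUNX1(41-214) against control (adjusted p = 0.00625). It was at 9.95, 9.98 and 10.05 on RUNX1(41-214) arrays, 9.34, 9.33 and 9.30 on Runx1KO arrays and 8.98, 9.20 and 9.11 on control arrays. Its replicates lay close together, and RUNX1(41-214) 3, the array of high mitotic level, did not stand apart. A dimmer Cdkn1b probe set gave -1.49 against control, with RUNX1(41-214) arrays at 5.26, 4.89 and 7.49 and control arrays at 6.89, 8.27 and 6.97, so here too the probe sets disagreed in direction. A dimmer probe set each of Smc4, Esco1 and Cdkn1b, like the single probe set of Cenpe, was lowest on RUNX1(41-214) 1 and 2 of the 9 arrays, and the cause was not tested. Of 43 DNA replication and S phase genes 0 passed in any comparison. Their means were below control in Runx1KO for 40 of 43, with a median difference of -0.23, while 25 of 40 mitotic genes had means above control in the same comparison. Over all 12393 genes, 6290 were below control in Runx1KO, with a median of -0.0040. In RUNX1(41-214) the S phase genes had a median difference from control of -0.17, with 34 below and 9 above. Over all genes 5873 were below there, with a median of 0.018. The 3 orders of arrays were shared by 17 of 43 of them (39.5%).

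Several erythroid genes were high and low on the same arrays. Klf1, the erythroid master regulator, was at 7.44, 6.89 and 9.67 on RUNX1(41-214) arrays, 9.07, 8.13 and 7.67 on Runx1KO arrays and 6.81, 10.63 and 9.01 on control arrays. Its highest arrays were control 2 and RUNX1(41-214) 3, and its lowest were control 1 and RUNX1(41-214) 2. Car1, an early erythroid carbonic anhydrase, was at 7.47, 7.25 and 9.95 on RUNX1(41-214) arrays, 9.91, 9.46 and 8.75 on Runx1KO arrays and 7.40, 11.43 and 10.0 on control arrays. Epor, the erythropoietin receptor, followed the same order with a range of 6.54 to 9.18. Of 9 listed erythroid markers 7 were measured, and 4 of 7, these 3 and the transferrin receptor Tfrc, shared the 3 orders of arrays. Their summed deposited signal was 1812 to 4077 on RUNX1(41-214) arrays, 2125 to 3768 on Runx1KO arrays and 2255 to 7315 on control arrays. The adult globin gene Hba-a1 was below a deposited signal of 16 on every array. Alas2 and Slc4a1, genes of haemoglobinizing cells, did not follow the order and rose in RUNX1(41-214) against control by 2.20 (adjusted p = 0.0102 in limma) and 2.91 (adjusted p = 0.0109). Tfrc passed in the opposite direction in that comparison, at -0.75 (adjusted p = 0.0414 in limma). Among the other marker lists, 0 of 9 granulocyte and monocyte, 0 of 6 megakaryocyte, 0 of 5 mast cell, 0 of 5 B cell, 0 of 5 T and NK cell and 0 of 6 stem and progenitor genes shared the 3 orders, and 1 of 6 stromal and endothelial genes did. The part of early erythroid cells in the mitotic levels was not tested.

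**Figure D5:**
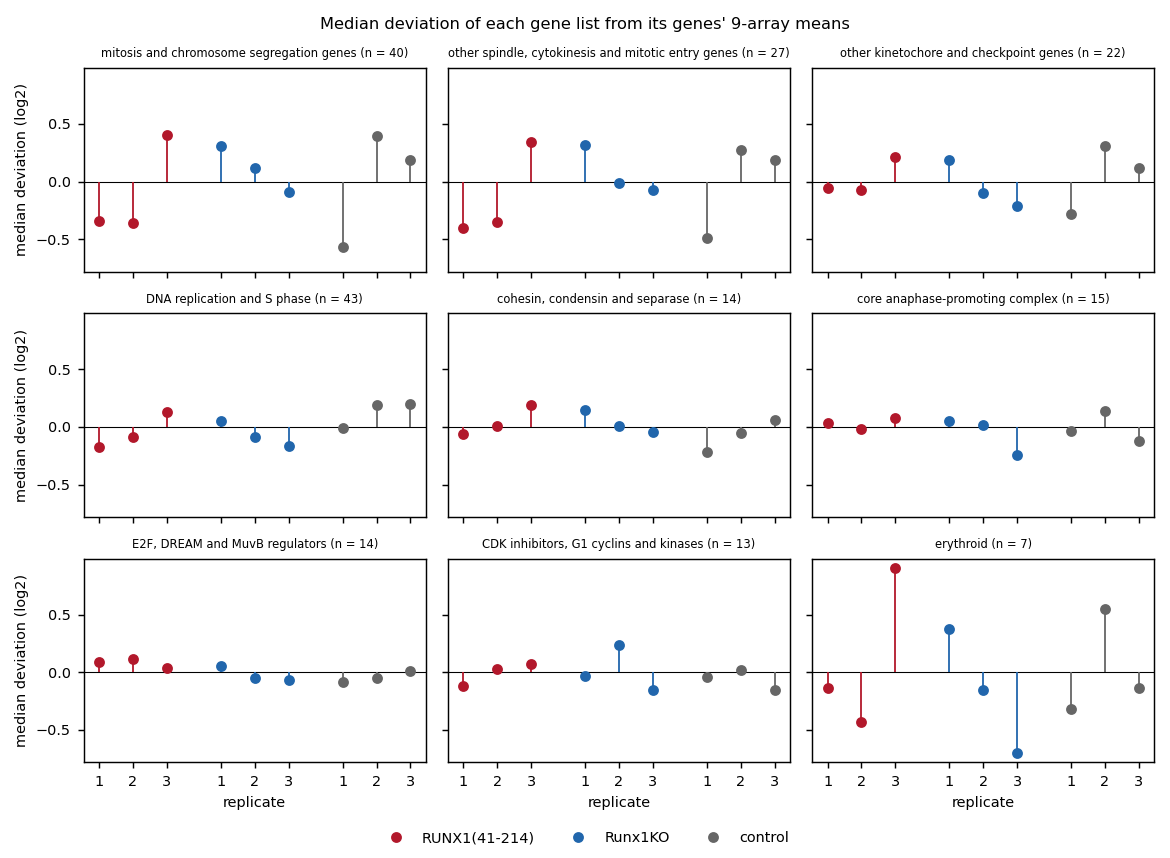
Median deviation from the 9-array mean (log2 units) of 9 gene lists on each array, with RUNX1(41-214) arrays first, then Runx1KO, then control. The mitotic genes dip on RUNX1(41-214) 1 and 2 and control 1, from -0.34 to -0.56, and peak on RUNX1(41-214) 3 and control 2, both at 0.40.

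The log2 3' to 5' Gapdh ratio was 1.29, 1.14 and 0.98 on RUNX1(41-214) 1, 2 and 3, 0.99, 1.27 and 2.13 on Runx1KO 1, 2 and 3, and 1.17, 1.85 and 1.25 on control 1, 2 and 3. In RUNX1(41-214) and in Runx1KO the array with the lowest ratio had the highest median deviation of the mitotic genes, and in Runx1KO the full order was inverse. In the controls the array with the highest ratio had the highest median deviation and the one with the lowest ratio had the lowest. The part of RNA length in the mitotic levels was not tested. Without control 2 and Runx1KO 3, 0 of 40 members passed in any comparison, and the median of Runx1KO minus control was 0.40 instead of 0.075.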

How the data were processed

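Per the labels' protocols, Qiagen microcolumns were used to extract RNA of KSL cells, and an Affymetrix protocol with repeated amplification gave the biotin-labelled material. The authors deposited 1 signal intensity per probe set and array on a linear scale, from 0.53 to 20215, for 22690 probe sets. How probes were summarised or scaled is not stated in the labels or the file. Control probe sets (64) were set aside, 16 was added to each signal, log2 was taken and arrays were quantile normalized, because their medians differed. An offset of this size understates changes of dim genes. Of 22626 probe sets, 20380 carried 1 gene symbol in the platform annotation, 691 several and 1555 none, and 20351 of the first had a gene identifier in RefSeq (GRCm38.p6), which changed 0 symbols. Each gene took its probe set with the highest mean, giving 12393 genes. Of the 40 members, 22 had several probe sets.

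Group means over the 9 arrays were estimated by limma 3.58.1 (R 4.3.3), using lmFit and a trended eBayes with 6 residual and 5.60 prior degrees of freedom. The fit gave 3 two-sided contrasts and a moderated F test. P-values were adjusted by Benjamini-Hochberg over all genes, with a threshold of 0.05. The labels call the samples biological replicates, and p-values set each difference against the spread between them, estimated over the 3 groups together. No 2 arrays were identical, and correlations between arrays were 0.968 to 0.992. The number of arrays limits the precision. Between Runx1KO and control, deviations of same-numbered replicates correlated at 0.027, 0.41 and 0.42, and those of different numbers at -0.47 to 0.14. In the comparisons with RUNX1(41-214) same-numbered replicates correlated at -0.17 to 0.20. Numbers were not taken to pair samples in the main fit, and a replicate block was fitted as an alternative.

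Members, lists and tests were chosen with earlier results of these data known. By the rule for named genes, values per array are given for Mki67, Top2a, Cdk1, Foxm1 and Plk1 and for the 4 members with the lowest p in each contrast, and other lists are represented by genes past the threshold or those of lowest p. Ube2c and Pttg1, erythroid genes and the dimmer probe sets were named after their values were seen. Promoter windows came from RefSeq and were searched for exact letters. Alternatives were 2 other normalizations, offsets of 1 and 50, a filter on dim genes, other choices of probe set, 2 groups at a time, array weights, a minimum fold of 1.2, a replicate block and each array left out.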

Additional observations from a re-analysis of the deposited data

How the results depend on the processing

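The count of mitotic genes past the threshold was 0 in each comparison under every alternative except one: without RUNX1(41-214) replicate 3, 1 member (Cenpe) passed against control, against Runx1KO and in the F test, so counts with 1 array left out ran from 0 to 1 there and stayed at 0 for Runx1KO against control. With the replicate number as a block, 0 members passed and 535, 171 and 47 genes in all passed for RUNX1(41-214) against control, RUNX1(41-214) against Runx1KO and Runx1KO against control, with 437 in the F test, and no call on a member changed. Counts over all genes moved more. RUNX1(41-214) against control had 531 genes, 294 with a minimum fold of 1.2 and 295 to 612 with 1 array left out. RUNX1(41-214) against Runx1KO had 168, 371 with array weights, 90 with the minimum fold and 74 to 208 with 1 left out. Runx1KO against control had 43, 65 without dim genes, 9 from the 6 arrays of the 2 groups, 18 with the minimum fold and 14 to 51 with 1 left out. The F test had 421, 678 with array weights and 209 to 447 with 1 left out. The cause of these moves was not tested.

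Small differences of named mitotic genes changed sign in places: over 39 pairs of gene and comparison and 819 alternative values, 60 changed sign, in 18 pairs, none of which had passed the threshold. In RUNX1(41-214) minus control, the common median gave Mki67 0.0017, values without normalization gave Foxm1 -0.052, and the mean of probe sets gave Foxm1 -0.072, Kif11 -0.064 and Nusap1 -0.012. Array weights gave Nusap1 -0.050 and Prc1 -0.038, and leaving out the 2 arrays of highest 3' to 5' ratio gave Kif23 0.048 and Mki67 0.094. In RUNX1(41-214) minus Runx1KO, the common median gave Top2a 0.053, and Cdk1 was -0.32 with array weights and -0.37 without those 2 arrays. In Runx1KO minus control, Plk1 was 0.00048 with the common median, array weights gave Plk1 0.093 and Cenpe 0.17, and leaving out those 2 arrays gave Plk1 0.51, Cenpe 0.36 and Kif2c 0.24. With 1 array left out in turn, RUNX1(41-214) minus control ran from -0.27 to 0.42 for Cdk1, -0.19 to 0.42 for Foxm1, -0.26 to 0.32 for Nusap1, -0.24 to 0.36 for Prc1, -0.23 to 0.38 for Top2a, -0.40 to 0.048 for Kif23, -0.59 to 0.095 for Mki67, -0.34 to 0.019 for Racgap1 and -0.098 to 0.46 for Kif11. RUNX1(41-214) minus Runx1KO ran from -0.24 to 0.065 for Top2a and -0.37 to 0.27 for Cdk1. Runx1KO minus control ran from -0.28 to 0.41 for Cdk1, -0.43 to 0.38 for Cenpf, -0.17 to 0.44 for Top2a, -0.052 to 0.62 for Mki67, -0.33 to 0.27 for Plk1, -0.45 to 0.29 for Cenpe and -0.46 to 0.14 for Kif2c. The median over the members moved by less than 0.40, the standard deviation of that median between arrays of a group, under all alternatives and ran from -0.34 to 0.040, -0.46 to -0.088 and -0.19 to 0.40 for the 3 comparisons in the same order. Arrays give no counting error, and 3 arrays per group limit what could be detected in genes that spread this widely.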
